A study of Mus musculus with 12 samples.

Results

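The genes described here are Castor2, Rcc1l, Gtf2ird2, Ncf1, Trim50, Nsun5 and Pom121, which lie undeleted next to both ends of the chromosome 5 deletion of CD mice. They were chosen by symbol, with earlier results of these data known, and are 7 of the 17202 genes in the table of normalized counts. RNA of the cortex was sequenced from 12 mice, 3 in each of 4 groups. Wild-type mice were given vehicle (VEH-WT) or the co-treatment (VERCUR-WT), and so were CD mice (VEH-CD and VERCUR-CD). The CD genotype is heterozygous for a deletion from Gtf2i to Fkbp6 and models Williams-Beuren syndrome. In the study's methods the mice are male and mostly of the C57BL/6J background (the labels give C57Bl6), the vehicle is water with DMSO, and CD mice were crossed with mice carrying the Thy1-YFP transgene, which labels pyramidal neurons. VERCUR is verapamil, a calcium channel blocker, given together with curcumin, a compound of turmeric. By the methods, the mice were 8 to 9 weeks old at the start, drank curcumin at 60 and verapamil at 7 mg/kg per day for 5 weeks before behavior was tested and from then on until they were killed at 13 to 14 weeks. By the labels, which call the vehicle groups untreated, the verapamil dose was 10, drinking began at 8 weeks and lasted 1 month, and the tissue is from mice of 16 weeks.

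Williams-Beuren syndrome is a neurodevelopmental disorder in which 1 chromosome lacks a run of adjacent genes. Genes within the lost segment are left with 1 copy, whereas genes beyond its ends keep both copies but lie next to a new neighbor on the rearranged chromosome. The boundary genes have unrelated roles. Castor2 is related to the arginine sensor Castor1 of the mTORC1 pathway, Rcc1l acts in the assembly of mitochondrial ribosomes, and Gtf2ird2 belongs to the TFII-I family of transcription factors, of which Gtf2i and Gtf2ird1 are deleted here. Ncf1 encodes p47phox, an organizer subunit of the NADPH oxidase of phagocytes. Trim50 is an E3 ubiquitin ligase known from gastric parietal cells, Nsun5 methylates cytosine in ribosomal RNA, and Pom121 anchors the nuclear pore in the nuclear membrane. In people TRIM50 and NSUN5 fall within the common deletion, so that the CD deletion, which ends at Fkbp6, leaves intact some genes that patients lack.

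In the GENCODE M21 annotation of GRCm38, the interval from Gtf2i to Fkbp6 covers 1.11 Mb of chromosome 5, from 134237834 to 135350044. The exact breakpoints are not given in the sources used here, so distances are from the ends of these annotated genes. The study describes a deletion somewhat longer than this interval, by more than any of the distances given here, so the distance of each gene from a breakpoint is not known. On the Gtf2i side, Ncf1 (ENSMUSG00000015950, 134220053 to 134229625, minus strand) lies 8.21 kb away and Gtf2ird2 (ENSMUSG00000015942, 134184019 to 134224355, plus strand) 13.48 kb away. Rcc1l (ENSMUSG00000061979, 134148054 to 134176774, minus strand) lies 61.06 kb from Gtf2i and Castor2 (ENSMUSG00000015944, 134099711 to 134144343, plus strand) 93.49 kb. Trim50 (ENSMUSG00000053388, 135353295 to 135368005, plus strand) starts only 3.25 kb beyond Fkbp6. It is followed by Nsun5 (ENSMUSG00000000916, 135369953 to 135376805, plus strand) at 19.91 kb and Pom121 (ENSMUSG00000053293, 135376141 to 135394546, minus strand) at 26.1 kb.

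Some of these genes share exonic sequence on opposite strands. Gtf2ird2 and Ncf1 overlap over 408 exonic bases, Nsun5 and Pom121 over 665, and Rcc1l overlaps the unnamed transcript B230377A18Rik over 375. Of the 100-base windows in the annotated transcripts, the share also present, letter for letter, in a transcript of another gene was 10.1% for Rcc1l, 2.5% for Gtf2ird2, 4.1% for Ncf1, 11.8% for Nsun5 and 10.3% for Pom121, in each case the overlapping gene. The strand setting of the counting is not given in the sources used here, so the reads of such a pair cannot be told apart within the overlap. Trim50 and Castor2 shared 0 of 1806 and 0 of 7558 windows, so their counts do not rest on annotated sequence in common with another gene.

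RefSeq promoter windows of 300 bases, from 250 before to 50 after the start, were at hand for 5 of the 7 genes, Castor2, Rcc1l, Gtf2ird2, Ncf1 and Pom121. The windows poorest and richest in CpG are shown, because they mark how unlike these neighbors are. Ncf1 had 3 CpG (more than 23.3% of the 32851 windows of the build) and Pom121 had 41 (more than 96.5%), with a median of 7 over all windows. Capitals mark each CG, and both sequences run 5′ to 3′ on the strand of the gene in GRCm38.p6.
Ncf1, chr5:134229576-134229875, minus strand: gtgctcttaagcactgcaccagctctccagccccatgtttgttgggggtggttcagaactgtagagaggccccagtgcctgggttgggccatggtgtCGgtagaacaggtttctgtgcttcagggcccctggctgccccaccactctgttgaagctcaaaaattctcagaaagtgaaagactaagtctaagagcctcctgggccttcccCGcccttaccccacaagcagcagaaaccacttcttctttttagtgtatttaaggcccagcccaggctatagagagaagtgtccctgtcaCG
Pom121, chr5:135394497-135394796, minus strand: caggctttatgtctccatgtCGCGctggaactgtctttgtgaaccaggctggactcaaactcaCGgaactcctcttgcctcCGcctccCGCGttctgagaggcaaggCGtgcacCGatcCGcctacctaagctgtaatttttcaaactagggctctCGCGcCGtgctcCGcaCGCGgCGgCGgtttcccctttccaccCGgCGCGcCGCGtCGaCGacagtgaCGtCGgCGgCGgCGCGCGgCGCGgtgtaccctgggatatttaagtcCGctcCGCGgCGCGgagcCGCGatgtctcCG
The other windows held 28 CpG in Castor2, 27 in Gtf2ird2 and 12 in Rcc1l, so that Ncf1 alone lay under the median. The letters TATAAA, searched on both strands, occurred in 0 of the 5 windows and in 13.6% of all windows. The promoters of these genes were not measured, and no level below was compared with the sequences.

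Depth followed from the steps of the low values and ran from 40290000 to 56480000 reads per mouse. It covers reads counted on the listed genes only, not all reads sequenced. The deletion was seen in every CD mouse: the median of 19 deleted genes was 0.468 to 0.53 of the VEH-WT mean in the 6 CD mice and 0.959 to 1.036 in the 6 WT mice. A library that stood apart was VERCUR-CD mouse 2, which had the highest or lowest value of all 12 mice in 39.4% of the genes tested, against 7.7% to 23.3% in the others, and the lowest value in 3 of the 7 genes described here. Genotype and co-treatment differences of the 7 genes that involve this mouse are therefore given with and without it. In the fit without it the lists of partner and marker genes and the other genes within 1 Mb also had 0 calls, except the deleted Gtf2i and Gtf2ird1. Excitatory neuron markers (6 of 6 tested) had 0 calls between VERCUR-CD and VERCUR-WT and a summed normalized count of 113000 to 133200 in the WT and 115100 to 129900 in the CD mice. Interneuron markers (4 of 4 tested) also had 0 calls between the co-treated groups, whose sums overlapped (31690 to 34390 in VERCUR-WT and 32240 to 32710 in VERCUR-CD mice). In vehicle-treated mice the sums did not overlap, with 34440 to 37920 in VEH-WT and 30890 to 33190 in VEH-CD mice. This is a description, and 20.6% of single genes did not overlap there. Its part in the values below was not tested.

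**Figure D1:**
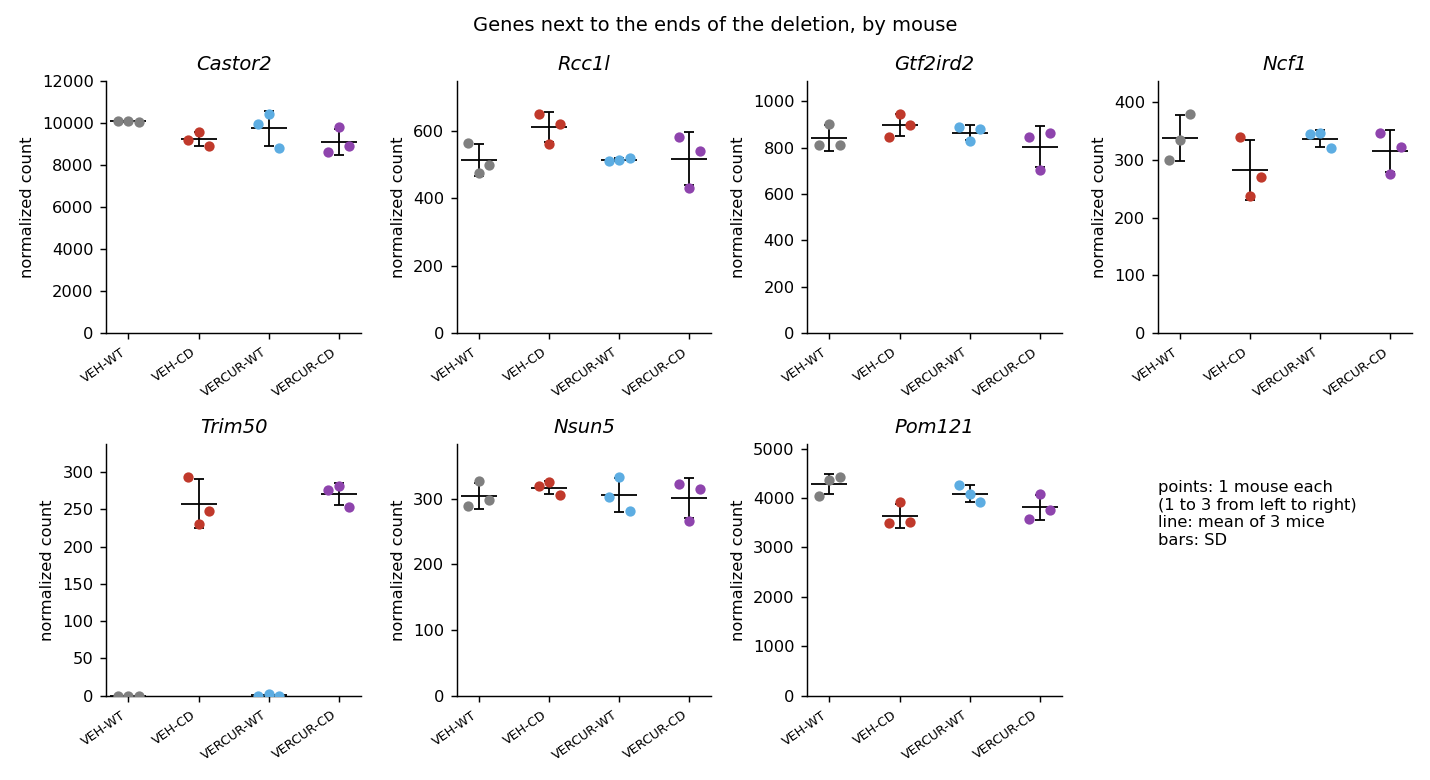
Normalized counts (y axis, from 0) of the 7 genes in each mouse, by group (x axis), with 1 point per mouse and the mean and SD of 3 mice. Trim50 is at or next to 0 in all 6 WT mice and between 230.46 and 293.64 in all 6 CD mice. For each other gene the 6 WT and the 6 CD values, taken over both treatments, overlap. Between VEH-CD and VEH-WT mice alone, the values of Castor2 and Pom121 do not overlap.

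Trim50 RNA was present in the cortex of every CD mouse and next to absent from that of WT mice. Its normalized counts were 0, 0 and 0 in VEH-WT mice and 294, 230.5 and 248 in VEH-CD mice. In VERCUR-WT mice they were 0, 1.85 and 0, and in VERCUR-CD mice 276, 281 and 253. The lowest CD mouse was thus far above the highest WT mouse under either treatment. VEH-CD mice averaged 257 ± 32.6 (SD, n = 3), and VERCUR-CD mice averaged 269.8 ± 14.7 (SD, n = 3). In whole reads, the value of 1.85 stood for 2 reads, and the CD mice had 257, 261, 207, 316, 312 and 263 reads each, so the level in CD mice did not rest on a few fragments. In bulk tissue, more cells with the RNA and more RNA per cell cannot be told apart.

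The vehicle-treated groups are those in which the difference in Trim50 was first known, so their values are a description. Of the tested genes, 20.6% had VEH-CD and VEH-WT values that did not overlap. VEH-CD mice had 725 Trim50 reads among 136800000 counted on the listed genes, and VEH-WT mice 0 among 141800000. A count of 0 allows up to 3 reads over the group, against which Trim50 was at least 247-fold higher in VEH-CD mice. These bounds cover counting error only.

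The co-treated mice are separate animals, and the test was made in them. The genes were chosen with earlier results of these data known, so its p value is no independent support. Trim50 was called higher in VERCUR-CD than in VERCUR-WT mice, with limma's adjusted p = 4.439e-07 over all 17111 genes tested and a log2 difference of 7.58 (SE 0.36) on the log2(normalized count + 1) scale. In reads, 891 in VERCUR-CD against 2 in VERCUR-WT mice made a ratio of 416, with an exact 95% counting interval of 115 to 3443 (408, with 113 to 3379, without VERCUR-CD mouse 2). Only 0.146% of the genes tested were called in this comparison, and 0.0234% (4 genes) were called higher. Without VERCUR-CD mouse 2 the log2 difference was 7.55 and the adjusted p was 3.544e-06. The size on the log2 scale moved with the pseudocount, from 5.63 with 5 to 9.97 with 0.1, and the adjusted p ranged from 2.752e-09 to 0.0006241 over 21 alternatives, all with the call. Trim50 entered the test only through the CD mice, since its mean in WT mice was 0.308, under the minimum of 10 for the mean of all mice.

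Per kb of exon, Trim50 in CD mice came to the level of ordinary neighbors. Its mean normalized count per kb was 146 in the 6 CD mice (127.5 to 162.5), above that of 48.0% of the genes tested, and 0.171 in the 6 WT mice. In CD mice Castor2 (1215 per kb) and Pom121 (668) were highest, followed by Rcc1l (199), Trim50, Gtf2ird2 (137), Ncf1 (81.6) and Nsun5 (71.5). Trim50 overlapped over the mice both with Rcc1l (151.5 to 229) and with Gtf2ird2 (113 to 152.5), and Ncf1 overlapped with Nsun5, so these places in the order do not differ beyond the spread. Castor2, Pom121 and Rcc1l did not overlap with one another. In WT mice the other 6 genes kept the same order, with 1313, 749.8, 181, 138, 92.2 and 70.7 per kb, and there none of them overlapped with the next over the mice.

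Trim50 is best known from gastric parietal cells, whose markers were near the floor of the table. Of 5 listed names only Atp4a, the proton pump of these cells, was tested, with normalized counts of 12.33 to 37.97 over the WT and CD mice and a log2 difference of -0.02 (limma, adjusted p = 0.9999) between VERCUR-CD and VERCUR-WT. Atp4b, Kcne2 and Cblif (also listed as Gif) were not among the genes tested. Choroid plexus (3 of 3 tested) and meningeal fibroblast markers (4 of 4) had 0 calls. Their summed counts were 69.28 to 153.1 and 1229 to 2058 in WT mice and 76.55 to 149.7 and 1245 to 1639 in CD mice. The sums of WT and CD mice overlapped for each list. The table holds 1 value per gene, so the part of Trim50 that the reads covered was not measured.

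No difference of Trim50 with co-treatment was detected. In CD mice the VERCUR-CD mean was 4.8% above the VEH-CD mean and the values overlapped. The log2 difference was 0.07, with a 95% interval of -0.70 to 0.84, that is from 0.62-fold to 1.79-fold (limma, adjusted p = 0.9697). Without VERCUR-CD mouse 2 it was 0.05. In WT mice the only reads were the 2 in VERCUR-WT mouse 2, a difference that was not detectable at this depth. The interaction of genotype and co-treatment was not called either (log2 -0.43, SE 0.50, adjusted p = 0.8542).

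Genes with the pattern most like that of Trim50 lay on other chromosomes. Likeness was the gap between the lowest of the 6 CD and the highest of the 6 WT mice on the log2(normalized count + 1) scale, which was 6.34 for Trim50. It was 1.28 for Dmgdh, an enzyme of choline breakdown on chromosome 13, with 47.68 to 64.68 in CD and 8.69 to 19.05 in WT mice. Next came Pirt (0.50, chromosome 11), the pseudogene Gm31166 (0.45, chromosome 19), Zfp180 (0.36, chromosome 7) and Git1 (0.36, chromosome 11). Only 98 genes had a gap above 0, and for 2 of them, Trim50 and Dmgdh, it was above 1. In 1.05% of the genes tested the 6 CD and the 6 WT mice did not overlap in either direction, and of the 7 genes described here this was so of Trim50 alone.

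**Figure D2:**
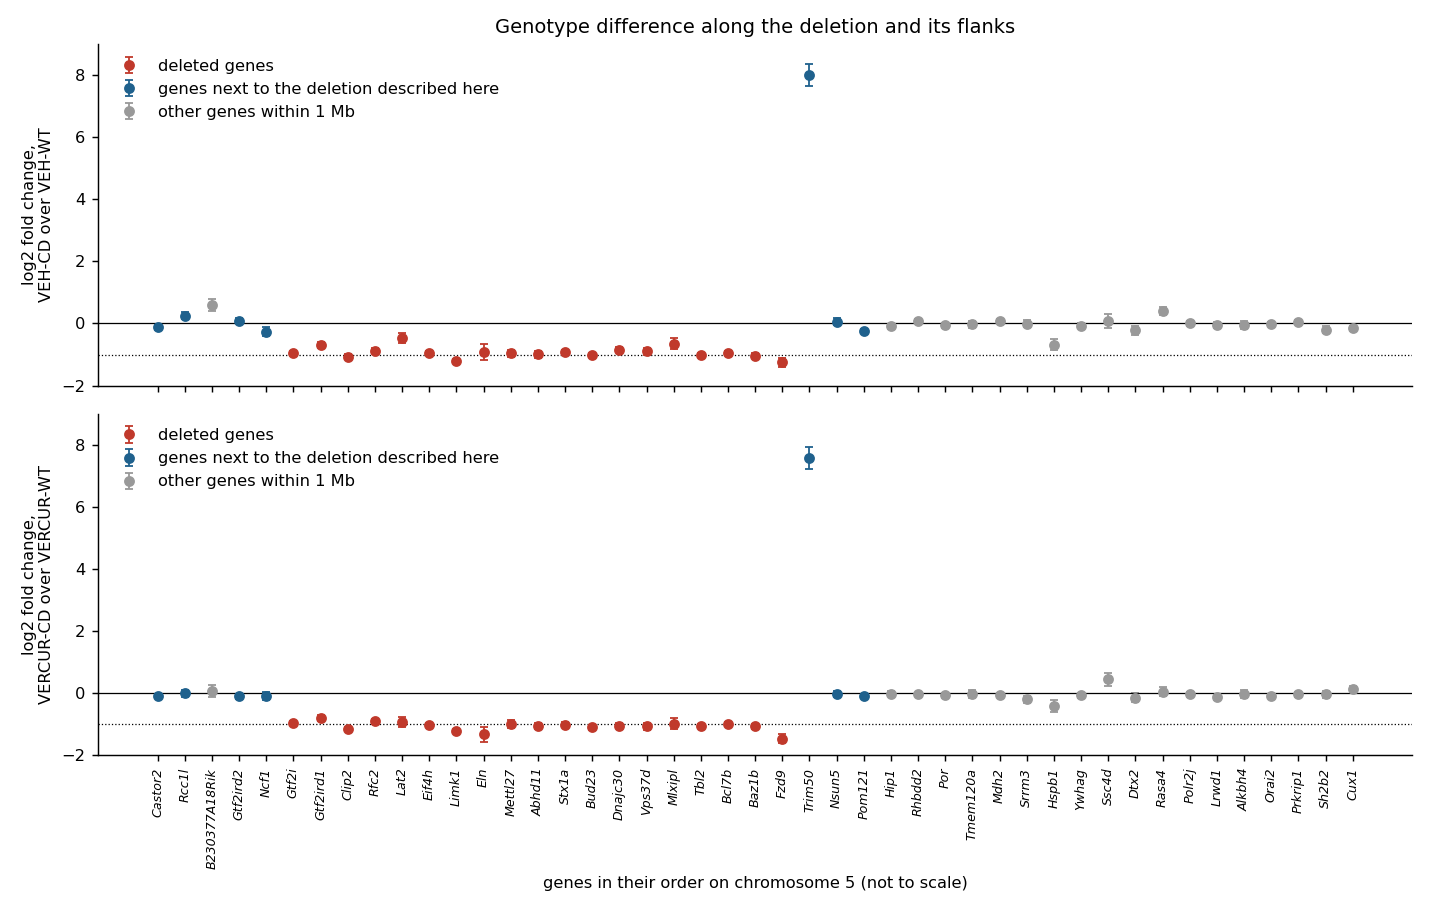
Log2 fold change of CD over WT mice (y axis, with SE) for the deleted genes, the 7 genes described here and the other tested genes within 1 Mb, in their order on chromosome 5 (x axis, not to scale), in vehicle-treated (top) and co-treated mice (bottom). The dotted line at -1 is the level of 1 copy in 2. Deleted genes run from -1.25 to -0.47 in vehicle-treated and from -1.48 to -0.80 in co-treated mice, Trim50 stands at 8.01 and 7.58, and the other genes run from -0.68 (Hspb1) to 0.59 (B230377A18Rik) and from -0.42 to 0.44.

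The other boundary genes did not share the drop of the deleted genes. Means of the 6 WT and the 6 CD mice were 9925 and 9183 for Castor2, 338 and 299 for Ncf1, and 4184 and 3726 for Pom121. These 3 were thus lower in CD mice, whereas Rcc1l was higher (515 and 565) and Gtf2ird2 and Nsun5 were nearly level. For each gene the WT and CD values overlapped, and these means are a description. Between VERCUR-CD and VERCUR-WT mice 0 of the 6 were called, with log2 differences of -0.11 to 0.00 and limma's adjusted p = 0.9999 for each. Their 95% intervals, on the scale of fold change, together spanned 0.76 to 1.18. The 19 deleted genes, as a comparison, had a median log2 difference of -1.06, and 16 of them were called lower. In the 6 CD mice the median of the 6 genes was 0.855 to 1.016 of the VEH-WT mean, with single genes from 0.705 to 1.267, whereas the median of the deleted genes did not exceed 0.53. Among all tested genes 7.74% had VERCUR-CD and VERCUR-WT values that did not overlap, and of the 7 genes described here Trim50 was the only one. Between VEH-CD and VEH-WT mice 3 of the 7 (Trim50, Castor2 and Pom121) did not overlap, beside 20.6% of all genes.

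**Figure D3:**
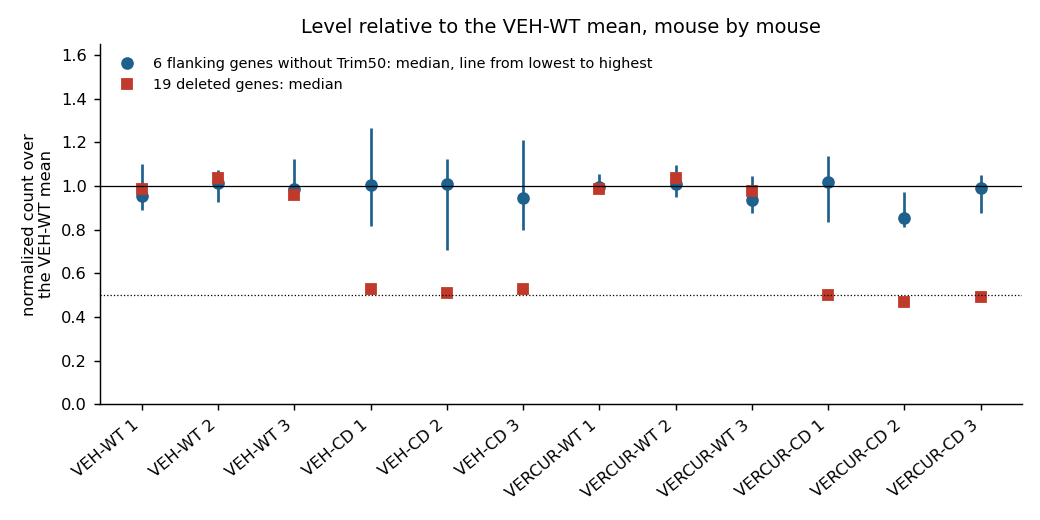
Normalized count relative to the VEH-WT mean (y axis) in each mouse (x axis), with the median of 19 deleted genes (squares) and the median and full range of the 6 boundary genes other than Trim50 (circles and lines). The squares of the 6 CD mice sit at 0.468 to 0.53, and the circles at 0.855 to 1.016, the lowest being VERCUR-CD mouse 2.

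On the Gtf2i side, Castor2 was the most abundant of these genes. Its normalized counts were 10099, 10125 and 10052 in VEH-WT mice and 9227, 9585 and 8932.5 in VEH-CD mice. They were 9988, 10448 and 8837 in VERCUR-WT mice and 8624, 9807 and 8923 in VERCUR-CD mice. All VEH-CD mice lay under all VEH-WT mice, whose CV was 0.4%. The means differed by -8.4% (a description, beside the 20.6% of all genes that did not overlap). The co-treated groups overlapped, and their log2 difference was -0.10 (95% interval -0.24 to 0.05). Without VERCUR-CD mouse 2 it was -0.15, with limma's unadjusted p = 0.04238 and adjusted p = 0.9299. Over all fits that left out 1 mouse it ran from -0.17 (without VERCUR-WT mouse 3) to -0.05 (without VERCUR-WT mouse 2). The amino acid sensing genes upstream of mTORC1 had 0 calls among 31 tested of 32 listed, with a median log2 difference of 0.003 (0.004 over all genes). The members with the largest differences were Fnip1, a folliculin partner (0.16, adjusted p = 0.9999), and Itfg2, a KICSTOR subunit (0.15, adjusted p = 0.9999).

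Rcc1l had its highest mean in VEH-CD mice, although the groups overlapped. Normalized counts were 566, 476 and 501 in VEH-WT, 651, 562 and 622 in VEH-CD, 513, 513 and 521 in VERCUR-WT and 584, 431 and 541 in VERCUR-CD mice. The VEH-CD mean was 1.19 times the VEH-WT mean, with 1 VEH-CD mouse under the highest VEH-WT mouse. In the co-treated mice the means differed by 0.5% (log2 0.00, 95% interval -0.25 to 0.24), and without VERCUR-CD mouse 2, the lowest of all 12, the log2 difference was 0.12 (adjusted p = 0.9299). B230377A18Rik, with which Rcc1l shares exonic bases, had a log2 difference of 0.59 between VEH-CD and VEH-WT mice and of 0.05 between the co-treated groups. Its values in the vehicle-treated groups did not overlap, beside 20.6% of all genes tested. Its part in the Rcc1l values was not tested. Of 18 genes for mitochondrial ribosomal RNA and its assembly, 18 were tested and 0 called, with a median of -0.003. Tfb1m, a methyltransferase of mitochondrial rRNA (0.13, adjusted p = 0.9999), and Fastkd2, an RNA-binding protein (0.12, adjusted p = 0.9999), differed most.

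Gtf2ird2 did not follow its deleted relatives. Its normalized counts were 810.4, 904 and 811 in VEH-WT, 848, 946 and 898 in VEH-CD, 888, 827 and 879.7 in VERCUR-WT and 847, 702 and 862 in VERCUR-CD mice. The groups overlapped throughout, and the means of the 6 WT (853 ± 41.9, SD, n = 6) and 6 CD mice (851 ± 81.8, SD, n = 6) lay together. In the co-treated mice the log2 difference was -0.11 (95% interval -0.30 to 0.08), and -0.02 without VERCUR-CD mouse 2. Gtf2i and Gtf2ird1, which lie within the deletion, were both called lower there, by -0.97 (adjusted p = 9.801e-07) and -0.80 (adjusted p = 0.001011) on the log2 scale.

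Ncf1, the gene nearest the Gtf2i end, was the most variable of the 6, with a CV of 12.6% over all 12 mice. Normalized counts were 300.4, 335 and 379.8 in VEH-WT, 339, 238 and 271 in VEH-CD, 344, 346 and 321 in VERCUR-WT and 347, 275 and 322 in VERCUR-CD mice. The VEH-CD mean was below the VEH-WT mean (-16.4%), with overlap. The log2 difference of -0.27 moved to -0.15 without VEH-CD mouse 2 and to -0.41 without VEH-CD mouse 1. The log2 difference of the co-treated groups was -0.10 (95% interval -0.40 to 0.19), and -0.01 without VERCUR-CD mouse 2. Microglia, the phagocytes of the brain, had 0 calls among 8 of 8 markers tested, with summed counts of 14120 to 16950 in WT and 14970 to 17930 in CD mice and a median log2 difference of 0.10. Itgam, named after its values were seen, had a log2 difference of 0.26, with limma's unadjusted p = 0.0436 and adjusted p = 0.9999. It was the highest of the 8 markers, which ran down to -0.10 (Trem2). Neutrophil and blood markers (4 of 7 tested) had 0 calls and a median of -0.21. Their sums, 10750 to 16430 in WT and 11170 to 22140 in CD mice, were mostly hemoglobin. In VEH-WT mice Hbb-bs averaged 7789 and Hba-a1 4609, against 57.95 for S100a9 and 31.88 for S100a8. These sums therefore do not measure neutrophils. S100a9 ran from 11.55 to 177.99 over the VERCUR-CD mice. Elane, Ly6g and Mpo, the other listed neutrophil markers, were not among the genes tested. The part of these cell types in the Ncf1 values was not tested. The NADPH oxidase genes had 0 calls among 7 tested of 13 listed, with a median of 0.08. Noxo1, an organizer subunit related to Ncf1 (0.31, adjusted p = 0.9999), and Ncf4, the p40phox subunit (0.20, adjusted p = 0.9999), differed most.

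On the Fkbp6 side, Nsun5 begins 1.95 kb after Trim50 ends, and it varied little, with a CV of 6.8% over all 12 mice. Normalized counts were 288, 327 and 298 in VEH-WT, 319, 325 and 305 in VEH-CD, 303, 333 and 281 in VERCUR-WT and 323, 265 and 315 in VERCUR-CD mice. WT and CD values overlapped under both treatments, with means of 305 ± 20.9 (SD, n = 6) in WT and 309 ± 22.3 (SD, n = 6) in CD mice. In the co-treated mice the log2 difference was -0.03 (95% interval -0.25 to 0.20), and 0.06 without VERCUR-CD mouse 2. Among RNA cytosine methyltransferases 7 of 7 were tested and 0 called, with a median of 0.04. Nsun3, which acts on a mitochondrial tRNA (0.20, adjusted p = 0.9999), and Nsun7 (-0.14, adjusted p = 0.9999) differed most.

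Pom121 was lower in VEH-CD mice without overlap. Its normalized counts were 4048.5, 4374 and 4433 in VEH-WT mice and 3490.5, 3923 and 3516 in VEH-CD mice. They were 4260.02, 4072 and 3917 in VERCUR-WT mice and 3575, 4089 and 3762 in VERCUR-CD mice. The VEH means differed by -15.0%, a description for the same reason as above. The co-treated groups overlapped, with a log2 difference of -0.10 (95% interval -0.25 to 0.05). Without VERCUR-CD mouse 2 it was -0.15, with limma's unadjusted p = 0.04344 and adjusted p = 0.9299, and without VERCUR-CD mouse 1 it was -0.06 (unadjusted p = 0.4526), so the difference was called in none of these fits. Nuclear pore genes had 0 calls among 29 tested of 31 listed and a median log2 difference of 0.02. Nup37 (0.18, adjusted p = 0.9999) and Nup107 (0.16, adjusted p = 0.9999), both of the scaffold of the pore, differed most.

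Genes of the TRIM family and of aggresomes, where Trim50 is known to act, had 0 calls. Of 15 TRIM ligases and aggresome genes 14 were tested, with a median log2 difference of -0.05 between VERCUR-CD and VERCUR-WT mice. Trim72, a TRIM ligase of muscle membrane repair, had -0.15 (adjusted p = 0.9999) and Bag3, a chaperone partner, -0.12 (adjusted p = 0.9999). Sqstm1 (p62), a receptor of ubiquitinated cargo named after its values were seen, was the only member with an unadjusted p under 0.05, and had a log2 difference of -0.11 with limma's unadjusted p = 0.03355 and adjusted p = 0.9999.

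Trim50 was also the only gene called near the deletion. Of 26 tested genes within 1 Mb of the deleted interval 5 lay on the Gtf2i side and 21 on the Fkbp6 side, and 1, Trim50, was called in the co-treated mice. The 19 that are not described above had a median log2 difference of -0.04. Ssc4d had the highest (0.44, SE 0.22, adjusted p = 0.9999) and Hspb1, a small heat shock protein 537.9 kb beyond Fkbp6, the lowest (-0.42, SE 0.18, adjusted p = 0.9999). Hspb1 had normalized counts of 273 to 513 in WT and 191 to 269.5 in CD mice, without overlap between the 6 and the 6. Of all genes tested 1.05% did not overlap in this way, and Hspb1 was named for its low value, so this is a description. Calls were also 0 among 18 genes at 1 to 2 Mb, 95 at 2 to 5 Mb, 106 at 5 to 10 Mb and 825 farther along chromosome 5, where medians were -0.08, -0.03, -0.01 and 0.01. The 0 calls in these farther bands stand beside the 0.146% of all genes called (25 genes, of which 16 are deleted genes). They are near that background and are no result about distance from the deletion. The 1 call within 1 Mb is Trim50, which was chosen with earlier results known, so it is no such result either.

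The next genes outward on either side had no calls in the co-treated mice. Castor2 borders a stretch of 1556 kb without a tested gene, beyond which lie Auts2, a neurodevelopmental gene (log2 0.12, SE 0.10), and Gm42991 (-0.64, SE 0.71). Hip1, a clathrin adaptor (-0.02, SE 0.09), and Rhbdd2 (-0.05, SE 0.06) follow Pom121. The adjusted p was 0.9999 for each.

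**Figure D4:**
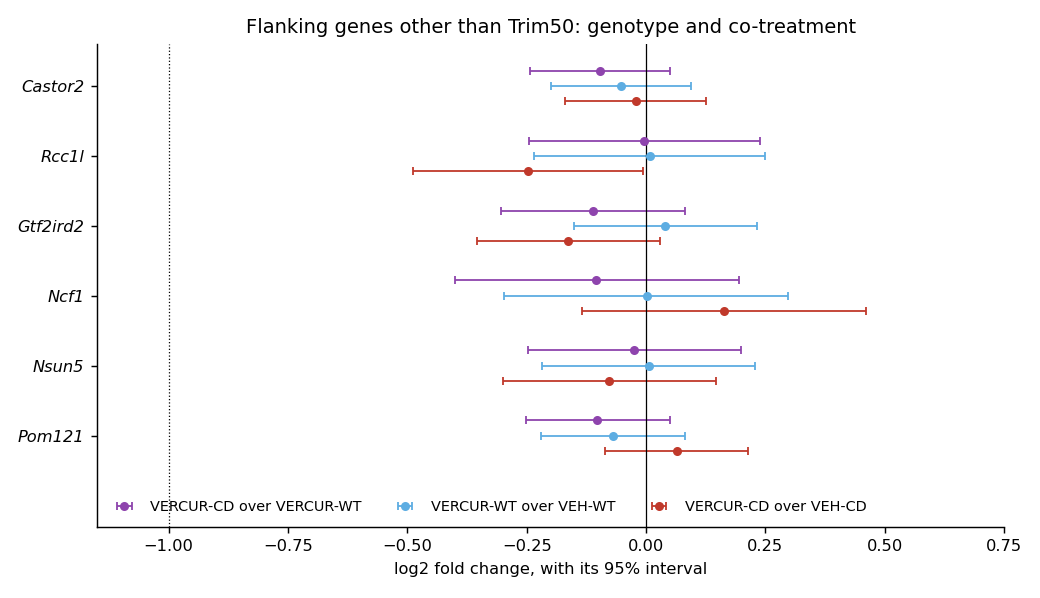
Log2 fold changes (x axis) with 95% intervals for the 6 boundary genes other than Trim50 (y axis), for genotype in co-treated mice and for co-treatment in WT and in CD mice. The dotted line at -1 marks the level of 1 copy in 2, and every interval lies to its right; the interval of Rcc1l between VERCUR-CD and VEH-CD mice (-0.49 to -0.01) is the only one without 0.

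Co-treatment was compared within each genotype, and called none of the 7 genes. In WT mice the log2 differences of the 6 genes other than Trim50 ran from -0.07 (Pom121) to 0.04 (Gtf2ird2), with adjusted p values of 0.9991 to 0.9996. In CD mice they ran from -0.25 (Rcc1l) to 0.16 (Ncf1). Rcc1l fell short of a call (SE 0.11, limma's unadjusted p = 0.04561, adjusted p = 0.867), and without VERCUR-CD mouse 2 its difference was -0.12 (unadjusted p = 0.2343). Gtf2ird2 followed with -0.16 (adjusted p = 0.867), which was -0.07 without that mouse. Without it Ncf1 had 0.26, Castor2 -0.08, Nsun5 0.01 and Pom121 0.01. Of all genes tested 0.0% were called in either comparison, while 893 in WT and 605 in CD mice had an unadjusted p under 0.05, and 9.72% and 8.34% had values that did not overlap. None of the 7 genes was free of overlap in either.

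The genotype difference was not shown to depend on co-treatment for any of the genes. Interaction terms of the 6 genes ran from -0.26 (Rcc1l, 95% interval -0.60 to 0.09) to 0.16 (Ncf1, -0.26 to 0.58), with adjusted p values of 0.8157 to 0.9428. For Pom121 and Castor2, lower without overlap in vehicle-treated mice only, they were 0.13 (95% interval -0.08 to 0.35) and 0.03 (-0.18 to 0.24). Without VERCUR-CD mouse 2 the terms were -0.13 for Rcc1l, -0.11 for Gtf2ird2, 0.26 for Ncf1, -0.46 for Trim50, 0.006 for Nsun5, 0.08 for Pom121 and -0.02 for Castor2, with adjusted p = 0.9998 for each. Of all genes 0.0% were called for the interaction in limma, and 1035 had an unadjusted p under 0.05.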

How the data were processed

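RNA of the cortex of 12 mice (3 in each of 4 groups) was sequenced by the authors as paired-end reads of 100 nt and aligned to GRCm38 with STAR 2.5.3a. The authors deposited, per gene and mouse, normalized counts, which are reads counted on a gene divided by 1 factor per sample. The counting program, annotation and normalization are not given in the sources used here. Low values were whole multiples of 1 step per sample (100% of them), which gave the reads counted on the listed genes per mouse. Steps were used for depth, read numbers and the Trim50 ratios only, and those intervals cover counting error alone. Group and mouse numbers come from the labels. The authors' other tables, of relative expression of selected genes, hold none of these genes and were not used.

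The fit used limma 3.58.1 in R 4.3.3 on log2(normalized count + 1), over 17111 genes with a mean of at least 10, with 4 group means over all 12 mice and an intensity trend. P values are two-sided and adjusted with Benjamini-Hochberg. A call needed a fold change above 1.25 or below 0.75 together with an adjusted p below 0.05 (for the interaction the adjusted p alone). The fit was tested on simulated data. Nothing shows which mice shared a cage or litter, so p values measure the spread between these mice. Exact permutation of 3 against 3 mice cannot fall below 0.1 and was not used.

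The genes and lists were chosen with earlier results of these data known, and no difference between the vehicle-treated groups is tested. Named are the 7 genes, the 2 tested genes next outward on each side, of each list and within 1 Mb every called gene or else the 2 with the largest log2 difference between the co-treated groups, and the 5 genes most like Trim50. Positions are from GENCODE M21 (17193 of 17202 genes found) and promoter windows from RefSeq (GRCm38.p6). Alternatives were pseudocounts, filters, scalings, other fits and leaving out each mouse.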

Additional observations from a re-analysis of the deposited data

How the results depend on the processing

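Trim50 was called in VERCUR-CD against VERCUR-WT mice under each of 21 alternatives to the fit, and the other 6 genes under none of them. The alternatives refit the same mice. Trim50 was chosen with earlier results known and passed the filter on the mean only through the CD mice. Its calls here, with or without a block, are therefore no independent support. The counts of calls among the 7 genes (1, 0, 0 and 0), among genes near the deletion (also with limits of 0.5 and 2 Mb) and in the lists (0, apart from the deleted Gtf2i and Gtf2ird1) did not move. Of 735 values of these genes under alternatives, 22 changed sign, all in fits without 1 mouse, and none of the 22 was called. Ranges over those fits, as log2 differences, were -0.095 to 0.124 for Rcc1l and -0.083 to 0.063 for Nsun5 in VERCUR-CD against VERCUR-WT. For VERCUR-WT against VEH-WT they were -0.103 to 0.018 for Castor2, -0.046 to 0.079 for Rcc1l, -0.082 to 0.087 for Ncf1, 0.0 to 0.755 for Trim50 (0.0 without VERCUR-WT mouse 2, the only WT mouse with reads) and -0.059 to 0.064 for Nsun5. For VERCUR-CD against VEH-CD they were -0.076 to 0.017 for Castor2, -0.002 to 0.172 for Trim50 and -0.13 to 0.011 for Nsun5. For the interaction they were -0.04 to 0.081 for Castor2, -0.682 to 0.074 for Trim50 and -0.141 to 0.006 for Nsun5. Over all genes, 22 to 30 were called between VERCUR-CD and VERCUR-WT. Co-treatment gave 0 calls in the fits of all mice, but up to 3 in WT mice (without VERCUR-WT mouse 3) and 2 in CD mice (without VERCUR-CD mouse 2). Whether the replicate numbers pair the mice is not known. The 18 same-numbered pairs correlated from -0.35 to 0.27 and 4 exceeded 0.1, and the 36 other pairs from -0.23 to 0.32, with 9 above 0.1. These correlations gave no sign of pairing but cannot exclude it. With the replicate number as a block Trim50 kept its call (log2 7.58, adjusted p = 1.182e-05) and calls over all genes went from 25 to 26. The planned count models on reads rebuilt from the steps were not run. As to depth, each of the 6 genes other than Trim50 had at least 226 reads in every mouse.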
